A study of Mus musculus with 7 samples.

Results

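The 4 genes of calcium/calmodulin-dependent protein kinase II (CaMKII), Camk2a, Camk2b, Camk2d and Camk2g, were followed through RNA splicing tables of cultured cortical neurons and through H3K9me3 tracks of the hippocampus. Every row of the splicing tables that carries one of the 4 symbols was kept, whatever its values. This gave 12 splicing events, of 19447 events in 7616 genes listed for replicate 1 and 22703 events in 8141 genes listed for replicate 2. Of the 12 events, 6 were matched by coordinates in the tables of both replicates (2 of Camk2b, 3 of Camk2d and 1 of Camk2g), and 6 were read from the replicate 2 tables alone (2 of Camk2a and 4 of Camk2b). For replicate 1, no event with the symbol Camk2a was listed. For H3K9me3 all 4 gene bodies were measured.

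CaMKII is a serine/threonine kinase that assembles into large rings of subunits and is switched on when calcium-loaded calmodulin displaces its autoinhibitory segment. Once active, neighbouring subunits phosphorylate each other and stay active after calcium has fallen, a property for which the kinase is known in synaptic plasticity and memory. Camk2a and Camk2b encode the subunits that dominate in forebrain neurons, and Camk2b subunits also bind actin filaments, whereas Camk2d and Camk2g are made in many tissues. The subunits share a kinase domain and a hub and differ most in the linker between them, which is built from variable exons.

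The RNA libraries asked which splicing events change a day after neurons have been depolarized. Wild-type cortical neurons of the ICR strain, taken at embryonic day 16 and grown to day 11 in culture, were exposed for 10 min to a buffer giving 50 mM KCl (2 libraries) or to the same buffer with NaCl in place of KCl (control, 2 libraries), and were lysed 24 h later. The ChIP libraries asked whether the repressive histone mark H3K9me3 is altered in the long term by an enriched environment: hippocampus of wild-type C57BL/6 mice aged 3 months was taken 1 week after 24 h in a large cage with toys (enriched, 2 libraries) or from mice kept in the home cage (1 library). Whether replicates came from different cultures or animals, and how many animals went into a library, is not in the labels, so the p-values speak for the variation among these libraries, which may be technical.

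Reads of splicing events came to 3643165 and 4666850 in the KCl libraries and to 3566066 and 5385345 in the control libraries, and ChIP fragments to 13008562 and 8058236 in the enriched libraries and 6187162 in the home cage library. Levels are given as CPM, the reads of both forms of an event per 1000000 scaled reads. The scaled reads are those of all events found in both tables for the CaMKII events, and those of the best-covered event of each of 6114 genes wherever genes are compared, as for the markers here, so that the 2 scales differ. The cultures were labelled as neurons, and their marker genes differed between the groups and within the KCl pair. The 5 measured neuron markers of 9 (Map2, Rbfox3, Snap25, Syp and Dcx) summed to 442 and 1492 CPM in KCl replicates 1 and 2 and to 4855 and 3958 CPM in control replicates 1 and 2. KCl replicate 1 had the lowest sum. All 5 measured astrocyte markers of 9 had log2 fold changes above 0, with sums of 4135 and 3061 CPM in KCl against 2978 and 2309 CPM in control. All 5 measured markers of the oligodendrocyte lineage of 11 did so too, with sums of 1997 and 1094 CPM in KCl against 317 and 341 CPM in control, as did 3 vascular and mesenchymal markers of 8, with 2902 and 2240 CPM against 431 and 517 CPM, and 4 progenitor markers of 7, with 612 and 688 CPM against 199 and 391 CPM. The measured markers of excitatory neurons were Cux1 and Cux2 of 7, which summed to 221 and 301 CPM in KCl against 205 and 271 CPM in control, and those of inhibitory neurons were Gad1 and Lhx6 of 6, with 42.5 and 83.2 CPM against 146 and 106 CPM. Among the astrocyte markers, Slc1a2 (log2 fold change 0.04) and Aldoc (0.29) had overlapping groups, and under limma 1 of the 5 was below 0. Groups also overlapped for the neuron marker Dcx and the progenitor markers Mki67 and Top2a. Best-covered genes weigh most in each sum. Syp alone gave 280 and 752 CPM in KCl against 3707 and 2107 CPM in control. Tagln, a mesenchymal marker, gave 2750 and 2128 CPM against 405 and 472 CPM. Aldoc gave 2695 and 2058 CPM against 2272 and 1611 CPM. No measured marker was at 0 in any library, and 0 of 5 microglia markers were measured.

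Starts of CaMKII genes were looked up because the ChIP tracks cover them. RefSeq promoter sequences (250 bases before to 50 bases after the start, build GRCm38.p6, which is mm10) were matched for Camk2b and Camk2d, 2 of the 4 genes, and are shown from 5′ to 3′ along the gene's own strand with each CG dinucleotide in capitals.
Camk2b, chr11:6065699-6065998, minus strand: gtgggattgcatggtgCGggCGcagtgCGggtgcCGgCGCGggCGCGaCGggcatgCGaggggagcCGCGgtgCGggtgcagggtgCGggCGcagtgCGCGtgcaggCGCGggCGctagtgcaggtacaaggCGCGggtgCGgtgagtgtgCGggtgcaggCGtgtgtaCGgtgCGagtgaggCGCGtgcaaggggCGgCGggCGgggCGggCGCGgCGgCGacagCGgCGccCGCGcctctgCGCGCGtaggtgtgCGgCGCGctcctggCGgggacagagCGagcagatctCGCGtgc
Camk2d, chr3:126596701-126597000, plus strand: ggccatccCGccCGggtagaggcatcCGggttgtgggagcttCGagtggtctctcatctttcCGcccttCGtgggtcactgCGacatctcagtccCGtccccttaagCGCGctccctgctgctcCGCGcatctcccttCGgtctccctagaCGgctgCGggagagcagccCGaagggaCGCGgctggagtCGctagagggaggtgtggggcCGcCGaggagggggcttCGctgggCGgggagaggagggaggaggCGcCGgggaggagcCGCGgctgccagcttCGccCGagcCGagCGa
The Camk2b sequence held 51 CG dinucleotides and 77.3% G or C, and 0.703% of 27025 promoters held at least as many. The Camk2d sequence held 31 CG dinucleotides and 70.3% G or C, and 10.3% of promoters held at least as many. The median promoter held 7 CG dinucleotides and 52.7% G or C, and 94.2% of promoters held at least 1. The letters TGACGTCA, the full cAMP response element, and its shorter form TGACG, each searched on both strands and the shorter one contained in the longer, were in neither sequence; 1.88% and 21.0% of all promoters held them.

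Camk2b, the subunit gene best covered in these libraries, had fewer reads in both KCl libraries than in both control libraries, while Camk2g had similar levels in all 4 libraries. The Camk2b event with the most reads was a 95-base exon on chromosome 11 (5989574 to 5989668, mm10, ENSMUSG00000057897). Its level was 15.8 and 83.0 CPM in KCl replicates 1 and 2, from 35 and 216 reads, against 245 and 230.1 CPM in control replicates 1 and 2, from 513 and 652 reads. The groups did not overlap, and the KCl libraries differed more from each other than the control libraries did. Means were 49.4 ± 47.6 CPM in KCl and 237 ± 10.4 CPM in control (SD, n = 2 each). The log2 fold change was -2.26 (SE 0.73, 95% interval -3.96 to -0.56), and edgeR's quasi-likelihood test over 11814 events gave an unadjusted p of 0.0158, or 0.411 after Benjamini-Hochberg adjustment. It did not pass the threshold of 0.05 in this model, which has no replicate block. Of all 11814 events, 134 (1.13%) had a lower log2 fold change. Without KCl replicate 1 the log2 fold change was -1.53 (edgeR adjusted p = 1.00), and without KCl replicate 2 it was -3.91 (edgeR adjusted p = 0.000767). Each of these fits has 1 KCl library, which is assumed to vary as the control pair does, and in the second it is KCl replicate 1, the library with the lowest sum of neuron markers. In bulk RNA, fewer neurons and less Camk2b RNA per neuron cannot be told apart, and the part of the shifted cell type markers in the Camk2b values was not tested.

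**Figure D1:**
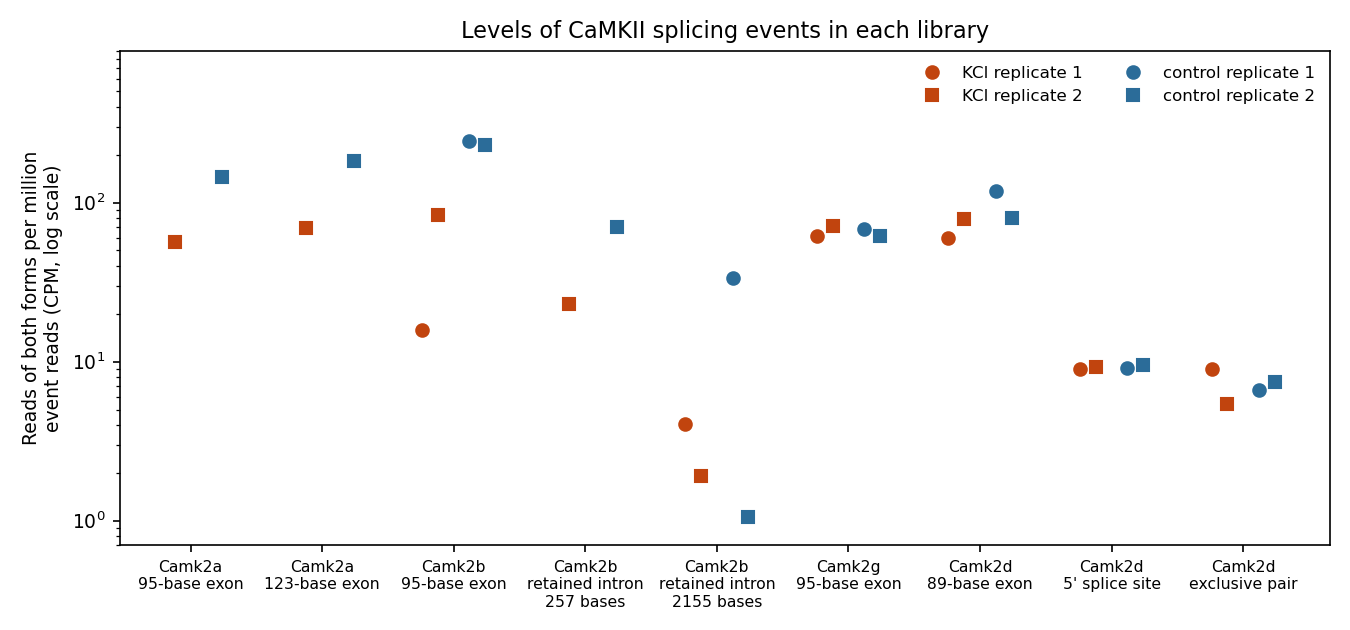
Level of each CaMKII splicing event with at least 10 reads on average, as CPM of both forms (log axis), in KCl (orange) and control (blue) libraries; circles are replicate 1 and squares replicate 2. The 95-base exon of Camk2b stood at 15.8 and 83.0 CPM in KCl and at 245 and 230.1 CPM in control, and that of Camk2g between 61.3 and 71.5 CPM in all 4 libraries.

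The other Camk2b events gave the following levels. A retained-intron event listed with 257 bases (5972632 to 5972888) was read from replicate 2, with 23.1 CPM in KCl (60 reads) and 69.9 CPM in control (198 reads). The ratio of KCl to control was 0.330 (95% exact interval 0.243 to 0.443, counting error only), and 2.12% of 20676 replicate 2 events with at least 20 reads had a lower one. The 95-base exon had a ratio of 0.361 (0.308 to 0.421) in the same pair of libraries. With 1 library a group these ratios have no replicate check. Another retained-intron event, listed with 2155 bases at the low-coordinate end of the gene (5969672 to 5971826), had 4.06 and 1.92 CPM in KCl replicates 1 and 2 against 33.4 and 1.06 CPM in control replicates 1 and 2. Control replicate 1 was high and the groups overlapped. Its log2 fold change of -2.50 (SE 1.28, edgeR adjusted p = 0.524) rested on that library: without control replicate 1 it was 1.46 (edgeR adjusted p = 0.775), and without control replicate 2 it was -3.48 (edgeR adjusted p = 0.0230), in fits whose spread comes from the KCl pair. The tables do not say whether the interval listed for a retained intron includes the flanking exons.

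Camk2a, the other subunit gene of forebrain neurons, could be compared in replicate 2 alone. A 95-base exon on chromosome 18 (60941287 to 60941381, ENSMUSG00000024617) had 56.1 CPM in KCl (146 reads) and 145 CPM in control (412 reads). A 123-base exon (60958141 to 60958263) had 69.2 CPM in KCl (180 reads) and 183 CPM in control (518 reads). Both exons were lower in the KCl library, with ratios of 0.386 (0.317 to 0.467) and 0.378 (0.318 to 0.449). Of the 20676 replicate 2 events, 3.70% and 3.37% had lower ratios. The exons belong to one gene and one pair of libraries and are not independent measurements, and no test between conditions was possible for Camk2a.

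Camk2g and Camk2d, the widely made subunits, had smaller fold changes. The 95-base exon of Camk2g on chromosome 14 (20764861 to 20764955, ENSMUSG00000021820) had 61.3 and 71.5 CPM in KCl replicates 1 and 2 and 68.2 and 61.4 CPM in control replicates 1 and 2. The groups overlapped, with means of 66.4 ± 7.23 CPM in KCl and 64.8 ± 4.82 CPM in control (SD, n = 2 each). The log2 fold change was 0.04 (SE 0.42, 95% interval -0.95 to 1.02, edgeR adjusted p = 0.993), so that changes of nearly 2-fold in either direction lie within the interval. The 89-base exon of Camk2d on chromosome 3 (126841485 to 126841573, ENSMUSG00000053819) had 59.9 and 79.2 CPM in KCl and 117 and 80.1 CPM in control. KCl replicate 2 and control replicate 2 were nearly level. The means were 69.6 ± 13.6 CPM and 98.7 ± 26.3 CPM (SD, n = 2 each), and the log2 fold change was -0.50 (SE 0.45, 95% interval -1.54 to 0.53, edgeR adjusted p = 0.772). Leaving out 1 library at a time moved it between -0.19 (without control replicate 1) and -0.75 (without control replicate 2). In replicate 2 alone the ratio of KCl to control was 1.16 (0.942 to 1.44) for Camk2g and 0.988 (0.814 to 1.20) for Camk2d, both with exact intervals for counting error only. Camk2d had 2 further events, over nearby 73-base exons, with levels of 5.38 to 9.53 CPM in all libraries and log2 fold changes of -0.03 (SE 0.50) and 0.02 (SE 0.55).

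In all, 0 of the 6 events measured in both replicates passed the edgeR test of levels, against 0% of all 11814 events. At an unadjusted p under 0.05 there was 1, the 95-base exon of Camk2b, against 10.9% of all events, of which 6.85% were lower and 4.08% higher in KCl. The groups did not overlap for 2 of the 6, the Camk2b 95-base exon and the Camk2d 89-base exon, against 41.8% of all events. Taking the best-covered event of each gene, 0 of 3 CaMKII genes passed edgeR's test, against 0% of 6114 genes, and Camk2b alone of the 3 had an unadjusted p under 0.05, against 12.2% of genes. The gene-level log2 fold changes were -2.27 (SE 0.73, edgeR adjusted p = 0.352) for Camk2b, -0.50 (SE 0.42, edgeR adjusted p = 0.734) for Camk2d and 0.04 (SE 0.40, edgeR adjusted p = 0.988) for Camk2g. Of the 6114 genes, 67 (1.10%) lay below Camk2b, 22.0% below Camk2d and 49.8% below Camk2g.

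Because Camk2a, Camk2b and Camk2g each have a 95-base exon that is nearly always included, their reads can be compared within a library at equal length, which needs no scaling between libraries. In replicate 2 the exon of Camk2b drew 216 of 541 inclusion reads in KCl (39.9%, exact binomial interval 35.8 to 44.2) and 649 of 1229 in control (52.8%, 50.0 to 55.6). Camk2a drew 144 reads in KCl (26.6%, 22.9 to 30.6) and 412 in control (33.5%, 30.9 to 36.2). Camk2g drew 181 reads in KCl (33.5%, 29.5 to 37.6) and 168 in control (13.7%, 11.8 to 15.7). The order of levels was Camk2b, Camk2g, Camk2a in the KCl library, where the interval of Camk2g overlapped those of both Camk2b and Camk2a, and Camk2b, Camk2a, Camk2g in the control library, where no intervals overlapped. In replicate 1, Camk2b drew 35 of 168 reads of the Camk2b and Camk2g exons in KCl (20.8%, 15.0 to 27.8) and 511 of 653 in control (78.3%, 74.9 to 81.4).

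The ratio of Camk2g to Camk2b exon reads was 3.80 (exact interval 2.60 to 5.68) and 0.838 (0.684 to 1.03) in KCl replicates 1 and 2, against 0.278 (0.229 to 0.335) and 0.259 (0.217 to 0.307) in control replicates 1 and 2. Both KCl libraries lay above both control libraries, and the 2 KCl libraries differed from each other beyond counting error. On the log2 scale the ratios averaged 0.84 ± 1.54 in KCl and -1.90 ± 0.07 in control (SD, n = 2 each), a difference of 2.73. An exact 2-sided permutation test gave p = 0.333, the smallest that 2 libraries against 2 can give. The ratio was chosen after its values had been seen. The shares and the ratio draw on the same exon reads as the levels above, so they are not a separate check of the Camk2b values. The part of the shifted cell type markers in the ratio was not tested.

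**Figure D2:**
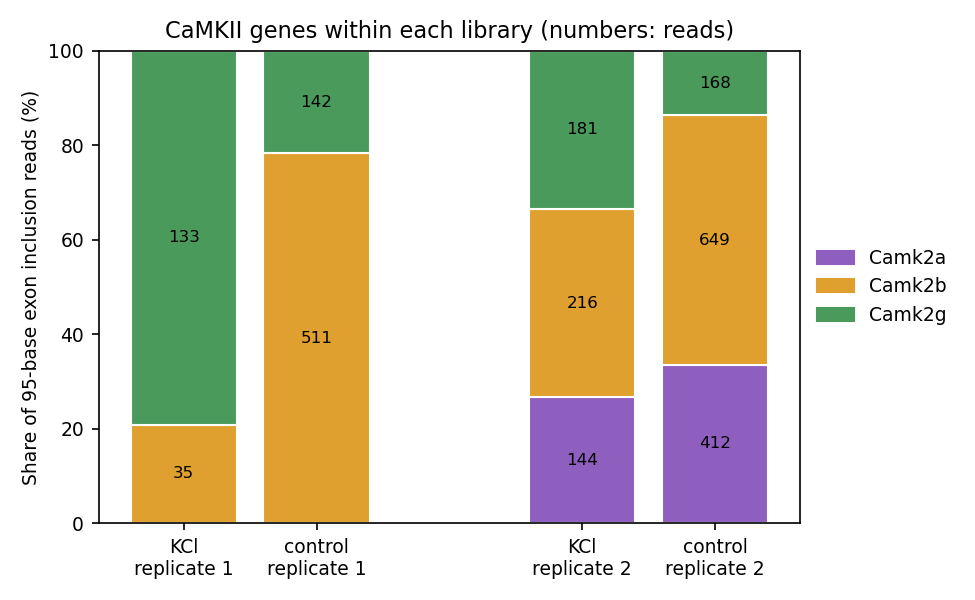
Share of the inclusion reads of the 95-base exons that fell to each CaMKII gene within a library (percent), with the reads written in the bars; Camk2a is shown for replicate 2 alone, so bars are compared within a replicate number. Camk2g took 133 of 168 reads in KCl replicate 1 and 181 of 541 in KCl replicate 2, against 142 of 653 in control replicate 1 and 168 of 1229 in control replicate 2.

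No CaMKII event passed the test for a change in the form used between KCl and control. The inclusion read share gives inclusion reads as a percentage of those of both forms. It takes no account of the length of each form, so different events are not set against each other. The 95-base exon of Camk2b had no skipping read in either KCl library (35 and 216 reads, which allow a skipping share of up to 8.57% and 1.39%) and 2 and 3 skipping reads in control replicates 1 and 2. The shares were 100% in both KCl libraries against 99.6% and 99.5% in control, so that the groups did not overlap. The log2 odds ratio was 2.20 (SE 1.64, 95% interval -1.23 to 5.64, edgeR adjusted p = 0.793 over 10088 events). It was 0.47 without KCl replicate 2 and 2.96 without KCl replicate 1. The 95-base exon of Camk2g had shares of 97.8% and 97.3% in KCl and 99.3% and 96.6% in control, and a log2 odds ratio of -0.22 (SE 0.95, edgeR adjusted p = 0.988). The KCl shares lay between those of the control libraries.

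The 89-base exon of Camk2d, whose length is not a multiple of 3, had many reads of both forms. Its inclusion reads were 50 of 133 and 94 of 206 in KCl replicates 1 and 2 and 96 of 246 and 75 of 227 in control replicates 1 and 2. The shares were 37.6% (exact binomial interval 29.3 to 46.4) and 45.6% (38.7 to 52.7) in KCl, against 39.0% (32.9 to 45.4) and 33.0% (27.0 to 39.6) in control. The groups overlapped, with KCl replicate 1 between the control libraries. Means were 41.6% ± 5.68 in KCl and 36.0% ± 4.23 in control (SD, n = 2 each), and the log2 odds ratio was 0.35 (SE 0.62, 95% interval -0.94 to 1.63, edgeR adjusted p = 0.973), which moved between 0.099 (without KCl replicate 2) and 0.58 (without KCl replicate 1) when 1 library was left out. In the authors' deposited table, the p-value of this exon was 1 in replicate 1 and 0.120 in replicate 2.

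The remaining Camk2d events lie around a pair of 73-base exons (126770785 to 126770857 and 126771774 to 126771846). An alternative 5′ splice site event spans both (1062 bases) and had 0 of 20 and 10 of 24 inclusion reads in KCl replicates 1 and 2, against 7 of 19 and 8 of 27 in control replicates 1 and 2. KCl replicate 1 was the lowest and KCl replicate 2 the highest, with shares of 0% (up to 15% allowed by its count) and 41.7%, against 36.8% and 29.6% in control. The log2 odds ratio was -0.93 (SE 1.23, edgeR adjusted p = 0.940), and without KCl replicate 1 it was 0.54. The mutually exclusive pair itself had 20 of 20 and 14 of 14 inclusion reads in KCl and 12 of 14 and 20 of 21 in control, with no overlap between the groups. Which exon of the pair counts as inclusion is not given. The skipping reads of the splice site event (20 and 14 in KCl, 12 and 19 in control) nearly equal the inclusion reads of the pair (20 and 14, 12 and 20), so the 2 events are not separate measurements. With a mean of under 1 skipping read, the pair was not tested.

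**Figure D3:**
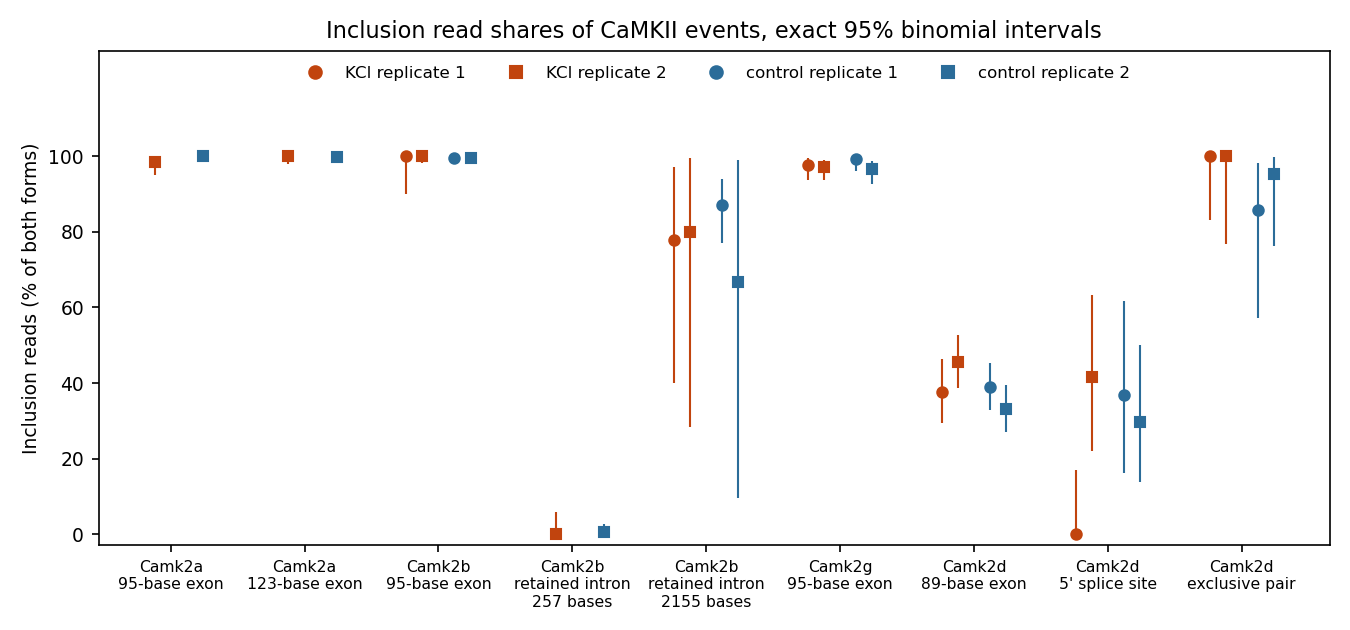
Inclusion read share of each CaMKII event (percent of the reads of both forms), with exact 95% binomial intervals, in KCl (orange) and control (blue) libraries; circles are replicate 1 and squares replicate 2. The 95-base exons sat between 96.6% and 100%, and the 89-base exon of Camk2d between 33.0% and 45.6%.

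Further Camk2b exons, whose place in the variable linker was not established, were barely covered. An exon pair of 129 and 114 bases (5976765 to 5976893 and 5978399 to 5978512), another 129-base exon (5977812 to 5977940) and the 114-base exon alone, all with lengths that are multiples of 3, were listed for replicate 2 with 2 to 4 reads in KCl and 1 to 4 reads in control. A difference in the splicing of these exons was not detectable at this depth. In Camk2a, the 123-base exon, also a multiple of 3, had 180 of 180 inclusion reads in KCl (a skipping share of up to 1.67% is allowed) and 517 of 518 in control, and the 95-base exon had 144 of 146 in KCl and 412 of 412 in control. The 257-base retained-intron event of Camk2b had 0 of 60 inclusion reads in KCl (up to 5% allowed) and 1 of 198 in control. The 2155-base event had shares of 77.8% and 80.0% in KCl and 87.1% and 66.7% in control, from 9, 5, 70 and 3 reads, and a log2 odds ratio of -0.66 (SE 1.50, edgeR adjusted p = 0.980).

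Of the 5 CaMKII events tested for inclusion, edgeR called 0, against 0% of 10088 events, and 0 had an unadjusted p under 0.05, against 9.2% of all events (4.97% lower and 4.23% higher in KCl). DESeq2 and limma also called 0. Non-overlapping shares were found in 1 of the 5, the 95-base exon of Camk2b, against 40.7% of all events. In the authors' deposited table, the false discovery rate was 1 for all 12 CaMKII events, whereas 2.26% of all events in replicate 1 and 0.828% in replicate 2 had a rate under 0.05.

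Other genes of calcium and calmodulin signalling were mostly lower in KCl, although none passed edgeR's test. Levels of these genes are CPM of the best-covered event of each gene, scaled over 6114 genes. In a list of 27 genes, 16 were measured, and all 16 had log2 fold changes below 0, against 47.5% of all genes. The count was 15 with total-read scaling and 14 without control replicate 1, the fewest in any setting. The median of the 16 was -1.18, against 0.04 over all genes. At an unadjusted p under 0.05, 7 were lower and 0 higher, against 7.26% and 4.94% of all genes. These were Gap43, a calmodulin-binding protein of growth cones, Calm2, which encodes calmodulin, the kinases Camk4, Camk1g and Pnck, Camkk2, which phosphorylates and activates other calmodulin-dependent kinases, and Ppp3cb, a catalytic subunit of the phosphatase calcineurin. Their log2 fold changes lay between -2.49 and -1.30. Gap43 had 1408 and 4335 CPM in KCl replicates 1 and 2 against 17043.5 and 13270.5 CPM in control replicates 1 and 2, or -2.40 on the log2 scale (SE 0.60, edgeR adjusted p = 0.352). Calm2 had 813 and 1230.2 CPM in KCl against 3630.1 and 2461 CPM in control, and -1.58 (SE 0.44, edgeR adjusted p = 0.352). Camk4 had 8.90 and 11.9 CPM in KCl against 45.3 and 72.4 CPM in control, and -2.49 (SE 0.52, edgeR adjusted p = 0.352). In each of these genes, named for an unadjusted p under 0.05, both KCl libraries lay below both control libraries. Over all 11814 events the groups did not overlap for 41.8%, in either direction. Ppp1cc, a catalytic subunit of protein phosphatase 1, was among the 3 best covered at an unadjusted p above 0.05, with 877 and 669 CPM in KCl against 1156 and 708 CPM in control.

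Anchors and substrates of CaMKII at the synapse gave a similar count. Of 20 genes, 17 were measured, 15 had log2 fold changes below 0 and 2 above, and the median was -1.29. None passed edgeR's test, and 9 had an unadjusted p under 0.05, all lower in KCl, where over all genes 47.5% had log2 fold changes below 0 and 7.26% were lower and 4.94% higher at that p. These were the NMDA receptor subunit genes Grin1 and Grin2b, the AMPA receptor subunit gene Gria1, the scaffold genes Dlg4, Shank3 and Lrrc7, the exchange factor gene Kalrn, and the calcium channel genes Cacna1c and Cacnb3. Their log2 fold changes lay between -2.05 and -1.04. Grin2b, which binds active CaMKII directly, had 10.3 and 30.6 CPM in KCl replicates 1 and 2 against 62.7 and 108 CPM in control replicates 1 and 2, or -2.05 on the log2 scale (SE 0.63, edgeR adjusted p = 0.352). Dlg4, which encodes the postsynaptic scaffold PSD-95, had 129 and 256 CPM in KCl against 504 and 582 CPM in control, and -1.50 (SE 0.47, edgeR adjusted p = 0.352). Without KCl replicate 1, 4 genes of the signalling list and 2 of the anchor list had an unadjusted p under 0.05, and without control replicate 1 there were 2 in the signalling list. Of the cell type markers given above, those of neurons and of inhibitory neurons also had lower sums in KCl. The sums of astrocyte, oligodendrocyte lineage, vascular and mesenchymal, and progenitor markers were higher, and those of excitatory neurons overlapped. The part of these marker shifts in the values of both lists was not tested.

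**Figure D4:**
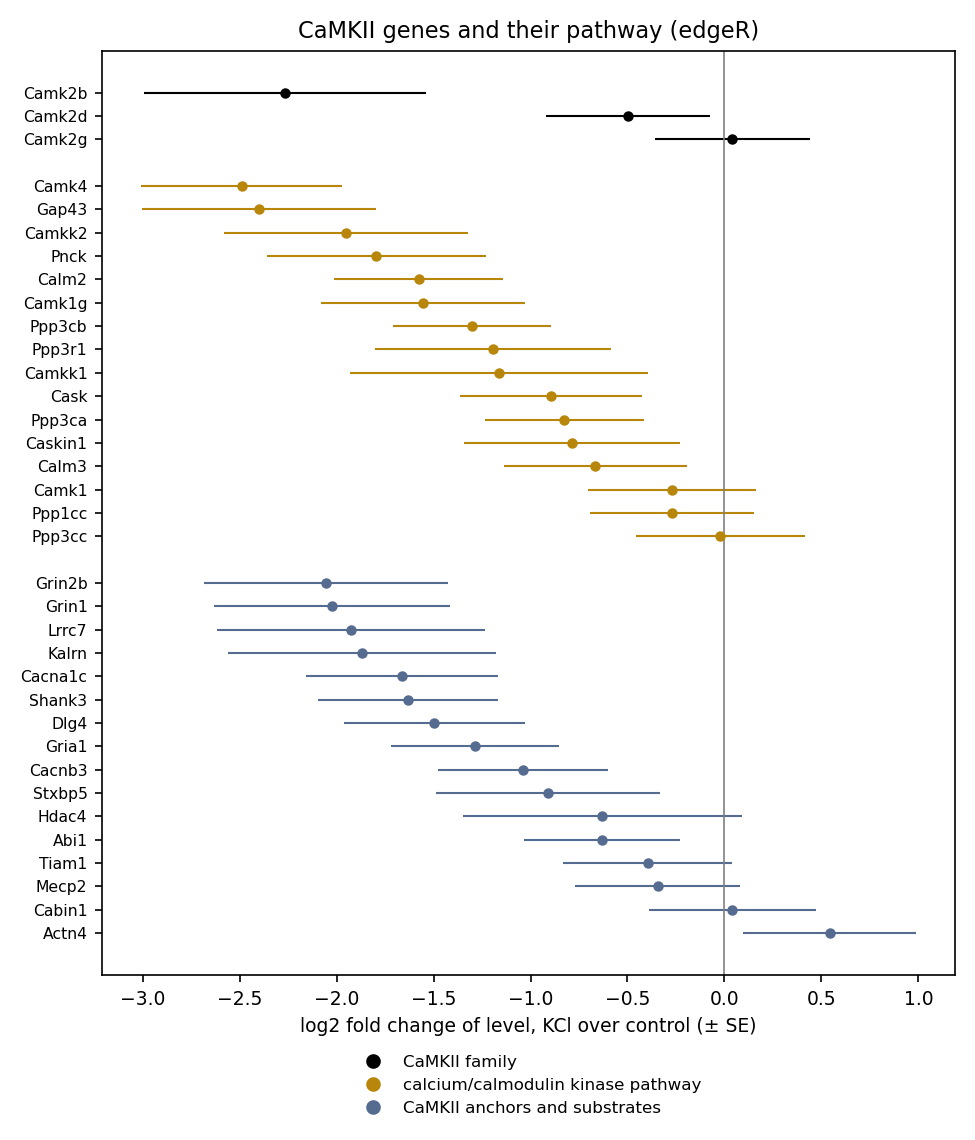
Gene-level log2 fold change, KCl over control, with its standard error (edgeR), for the 3 CaMKII genes measured in both replicates and for measured genes of the 2 lists. Camk2b at -2.27 lies among the lowest genes of either list, and Camk2g at 0.04 and Actn4 at 0.54 among the highest.

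Within the lists, 0 of 30 events of the signalling genes and 0 of 38 events of the anchors and substrates passed edgeR's test of inclusion, and 4 and 10 had an unadjusted p under 0.05, against 9.2% of all events. These counts are not of separate measurements. An 87-base exon of Abi1 entered more than once, with equal skipping reads (34 and 66 in KCl, 22 and 37 in control). Exons of Caskin1, Cabin1 and Tiam1 and a 66-base exon of Dlg4 had 0 to 8 skipping reads a library. A 30-base exon of Ppp3ca, a catalytic subunit of calcineurin (chromosome 3, 136932011 to 136932040), had shares of 9.52% and 8.85% in KCl replicates 1 and 2 against 36.5% and 36.5% in control replicates 1 and 2. The log2 odds ratio was -2.49 (SE 0.68, edgeR adjusted p = 0.165), and the authors' deposited table gives false discovery rates of 0.00232 and 0.000290 for replicates 1 and 2. This exon had the lowest edgeR unadjusted p among the events of both lists, and it did not pass edgeR's adjusted test. Its shares lay far apart between the groups. Of the 5 CaMKII events tested, the 95-base exon of Camk2b alone separated the groups, and by less than 1 percentage point.

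Among the 5 genes whose levels ran most like those of Camk2b over the 4 RNA libraries, by the root mean square distance of the centred log2 levels, were Gabra5 (0.056), Gm20754 (0.077), Scn3b (0.10) and Stmn2 (0.12), against a median distance of 1.66 over all genes. Gabra5 encodes a GABA-A receptor subunit, Scn3b an auxiliary subunit of sodium channels, and Stmn2 a microtubule regulator of neurons. The closeness of Gm20754 rests on low levels. It had 0.685 and 5.10 CPM in KCl replicates 1 and 2 against 13.2 and 14.0 CPM in control replicates 1 and 2. Gabra5 had 9.59 and 48.7 CPM in KCl replicates 1 and 2 against 158 and 143 CPM in control replicates 1 and 2, where Camk2b on the same gene scale had 24.0 and 122 CPM against 357 and 350 CPM. In both genes KCl replicate 1 was the lowest library and the control libraries were nearly level.

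H3K9me3 over the CaMKII genes lay between 0.697 and 1.05 times the median window in the 3 ChIP libraries. Between enriched and home cage hippocampus, limma called a difference for none of the 4. The spread in this test comes from the enriched pair, since the home cage has 1 library. It is pooled over all genes tested and is not each gene's own. Values are fragments per kb relative to the median 10 kb window of the same library, with exact Poisson intervals. Camk2b (chromosome 11, 5969629 to 6066357) had 0.772 (0.693 to 0.857) and 0.977 (0.868 to 1.10) in enriched replicates 1 and 2, from 351 and 293 fragments, against 0.697 (0.591 to 0.815) in the home cage, from 155 fragments. The home cage library was lowest, and its interval overlapped that of enriched replicate 1 but not that of enriched replicate 2. The log2 fold change was 0.25 (SE 0.21, 95% interval -0.17 to 0.66, unadjusted p = 0.241, limma adjusted p = 1.00), and it was 0.45 without enriched replicate 1 and 0.087 without enriched replicate 2. Camk2a (chromosome 18, 60925307 to 60988152) had 0.890 (0.786 to 1.00) and 1.05 (0.908 to 1.20) in enriched replicates 1 and 2 against 0.803 (0.663 to 0.963) in the home cage, with a log2 fold change of 0.20 (SE 0.23, limma adjusted p = 1.00) that was 0.35 without enriched replicate 1 and 0.088 without enriched replicate 2.

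Camk2g (chromosome 14, 20734873 to 20794157) had 0.768 (0.669 to 0.878) and 0.843 (0.716 to 0.987) in enriched replicates 1 and 2 against 0.821 (0.676 to 0.988) in the home cage, with -0.09 on the log2 scale (SE 0.24, limma adjusted p = 1.00). Camk2d, the longest of the 4 (chromosome 3, 126595487 to 126846326), had 1.03 (0.972 to 1.09) and 0.986 (0.918 to 1.06) against 1.00 (0.920 to 1.09), and -0.03 (SE 0.15, limma adjusted p = 1.00). Camk2d thus had the narrowest error, from 1213, 767 and 577 fragments. Of the 4 genes limma called 0, against 0% of 24372 genes, and 0 had an unadjusted p under 0.05, against 1.77% of all genes (0.899% lower and 0.874% higher in enriched). The medians over all genes were 0.994 and 1.02 in the enriched libraries and 0.963 in the home cage.

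Along the gene bodies no whole 5 kb bin of any CaMKII gene exceeded 2 times the median window in all 3 libraries. The whole bin with the highest mean lay 20 to 25 kb from the low-coordinate end of Camk2d, with 1.62 and 2.71 in enriched replicates 1 and 2 and 2.43 in the home cage. The shorter bin of 1.729 kb that ends Camk2b on the side of its start had 2.71 and 0.746 in enriched replicates 1 and 2 and 1.01 in the home cage, from 22, 4 and 4 fragments. Of the whole bins, 11 of 50 in Camk2d and 1 of 12 in Camk2a were above the median window in every library, against 0 of 19 in Camk2b and 0 of 11 in Camk2g. Within 2 kb of the CG-rich start of Camk2b shown above there were 31 and 13 fragments in enriched replicates 1 and 2 and 12 in the home cage, and at the start of Camk2d 27 and 16 against 8. Medians over 27025 starts were 17 and 12 in the enriched libraries and 8 in the home cage. These counts were below the minimum mean of 20 fragments and were not tested.

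**Figure D5:**
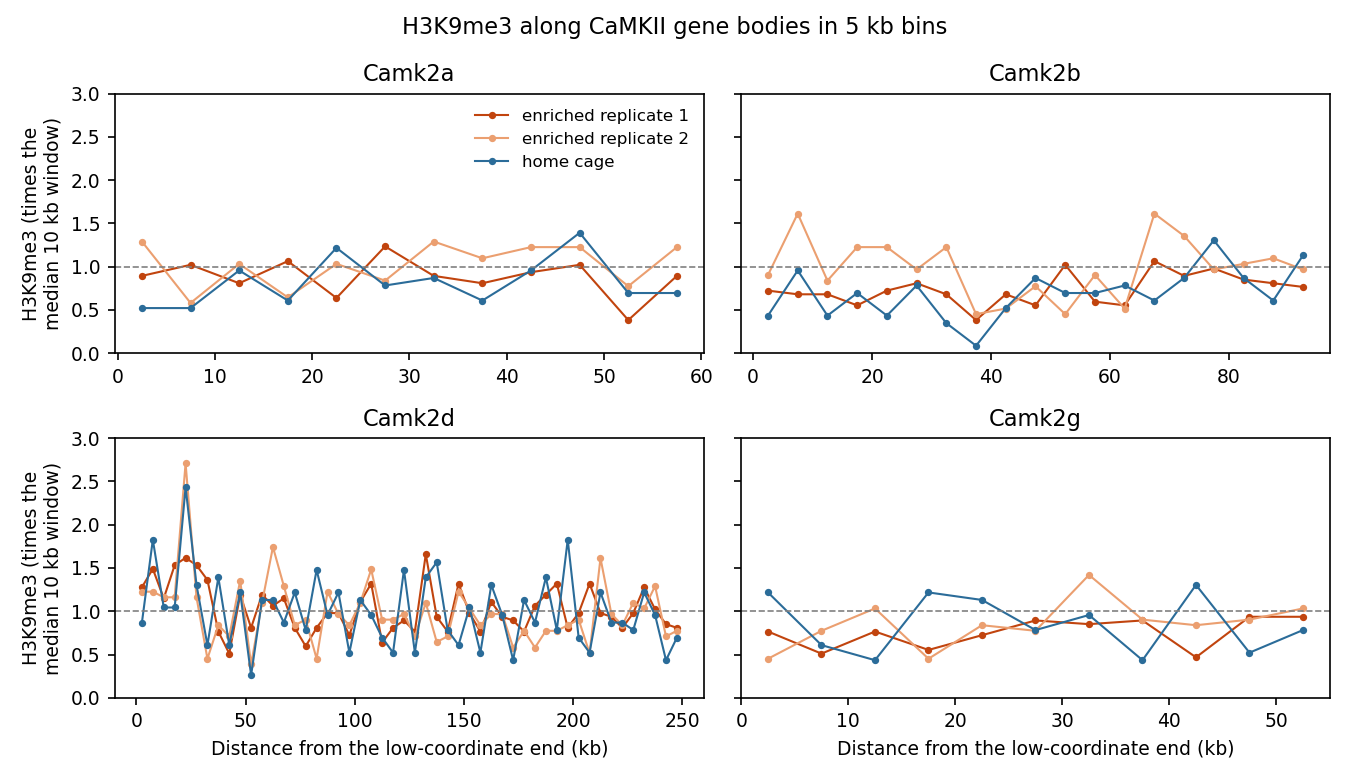
H3K9me3 in 5 kb bins along each CaMKII gene body, as a multiple of the library's median 10 kb window (dashed line at 1), against distance from the gene's low-coordinate end (kb), in enriched replicates 1 and 2 (dark and light orange) and the home cage (blue). The highest point is the bin 20 to 25 kb into Camk2d, shorter bins at gene ends being left out, with 1.62 and 2.71 in the enriched libraries and 2.43 in the home cage.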

How the data were processed

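RNA was measured in 2 KCl and 2 control libraries, and H3K9me3 in 2 enriched libraries and 1 home cage library. Per the file headers, the RNA tables that the authors deposited hold raw counts of reads for 2 forms of each splicing event, inclusion and skipping, and p-values and false discovery rates that compare KCl with control separately for each replicate number. The deposited ChIP tracks hold a coverage signal without strand, in which every level is a whole multiple of 1 step (tolerance 0.01). The submitters' processing notes name CASAVA 1.7, BWA 0.7.12, MACS2, TopHat2 and mm10, without roles. For the event counter, its annotation and its use of strand, nothing was given in the sources used here. The 2 KCl count columns repeated in the table of control replicate 1 were not used.

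Groups came from the sample titles. Events with unique coordinates in both tables (11814) entered the fits: 2634 and 3120 rows shared coordinates with others, none of them of CaMKII. Inclusion was tested with edgeR 4.0.16 (quasi-likelihood, R 4.3.3) on both forms' counts with a term per library, where each form averaged at least 1 read, and levels on summed reads with TMM scaling. Fragments were recovered from the coverage steps, kept at most 2 per start, counted by midpoint over RefSeq gene bodies with a mean of at least 20 fragments, scaled by the median ratio over the lower 75% of 10 kb windows, and tested with limma 3.58.1 with voom weights. Benjamini-Hochberg adjustment covered all features, with a threshold of 0.05. Ratios and shares carry exact 95% intervals for counting error only, and a count of 0 was read as up to 3 counts.

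Alternatives were DESeq2 1.42.0, limma with a pseudocount of 0.5, other scalings, filters and windows, a replicate block and leaving out each library. The main fits of inclusion, levels and H3K9me3 were tested on simulated data with libraries drawn independently, and the alternatives were not. The CaMKII genes and the lists were chosen with earlier results of these data known. Events with a mean of at least 10 reads were described by library, list genes named at an unadjusted p under 0.05 or among the 3 best covered, and the 5 genes most like the best-covered CaMKII gene sought. Some items that these rules name are not reported here. Tables and figures were made in Python 3.11.15 with pandas 2.3.3, numpy 2.4.6, matplotlib 3.10.9 and scipy 1.17.1.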

Additional observations from a re-analysis of the deposited data

How the results depend on the processing

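Leaving out 1 library at a time, 0 to 1 CaMKII events and 0 to 1 CaMKII genes passed edgeR's test of levels: 1 event without control replicate 2 (the 2155-base event of Camk2b), 1 event and 1 gene without KCl replicate 2 (Camk2b, edgeR adjusted p = 0.000767 and 0.000469), and 0 otherwise. For inclusion the count was 0 in each case. The log2 difference of the Camk2g to Camk2b ratio ranged from 1.64 to 3.82, an alternative added after the data were examined. A fit with the replicate block called 1 CaMKII event (log2 fold change -2.57, adjusted p = 0.0302) and 1 CaMKII gene (-2.57, adjusted p = 0.00234), Camk2b in both, with 1359 events and 1240 genes called over all features and 167 events for inclusion. Libraries with the same number deviated from their group means together (a correlation of 0.635 over events, which are not independent), but there are 2 pairs and the labels do not explain the number. DESeq2 gave adjusted p = 0.0695 for the 95-base exon of Camk2b and 0.0667 for the gene, and called 74 events and 55 genes over all features. Camk2b remained negative at gene level in all 13 alternatives, from -3.95 to -1.52.

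Values that changed sign were small or rested on few reads. On the log2 scale, leaving out 1 library at a time gave inclusion values from -0.95 to 0.89 for the 2155-base event of Camk2b (the highest without control replicate 1), from -1.73 to 0.49 for the 95-base exon of Camk2g (the highest without control replicate 1) and from -6.44 to 0.54 for the 5′ splice site event of Camk2d (the highest without KCl replicate 1). It gave levels from -3.48 to 1.46 for the 2155-base event of Camk2b (the highest without control replicate 1), from -0.40 to 0.35 for the exclusive pair of Camk2d, from -0.046 to 0.0086 for its splice site event, from -0.081 to 0.13 for the Camk2g event and from -0.12 to 0.14 for the Camk2g gene, and H3K9me3 values from -0.16 to 0.0027 for Camk2g. The 95-base exon of Camk2b had an inclusion value of -0.15 under limma. The exclusive pair of Camk2d had a level of -0.017 with the replicate block and -0.014 under limma, and its splice site event had 0.0059 when scaled by total reads. Camk2d had an H3K9me3 value of 0.013 when scaled by library totals. Their cause was not tested. The window of 2 kb around gene starts gave no value for a CaMKII gene, since Camk2b and Camk2d fell below the minimum and Camk2a and Camk2g were not matched in the promoter table. The 129-base and 114-base exons of Camk2b, with at most 4 reads a library, could not be compared at this depth.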
